A study of Mus musculus with 18 samples.

Results

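Barx1, Zfp608 and Wnt3 are 3 genes at which cells rescued with the W465A/W796A form of DNMT1 held less CpG methylation in a 1 kb stretch than the W465A and W796A effects add up to. They are 3 of 21033 protein-coding gene regions with enough reads to be tested, and 1 tile (a 1 kb stretch) per gene met the rule. The members were selected on exactly these levels, so the values of WT, W796A, W465A and W465A/W796A in the chosen tiles are given as a description with no test. The assay, enhanced reduced representation bisulfite sequencing (eRRBS), treats enzyme-cut genomic DNA with bisulfite so that unmethylated cytosines read as thymine. All 18 libraries came from mouse embryonic stem (ES) cells whose own Dnmt1 was knocked out, and each of the 6 groups has 3 libraries labelled as biological replicates. The groups stably express, from the pPyCAGIP plasmid after puromycin selection, wild-type DNMT1 (WT), DNMT1 with 1 tryptophan changed to alanine (W796A or W465A), with 2 changed (W464A/W465A and W465A/W796A) or with all 3 changed (W464A/W465A/W796A). Several stable lines were made per group, but the sources used here do not tell if a group's replicates are different lines, so p-values measure the spread between these libraries, which may be technical. Empty-vector cells were not analysed here, and the counts hold no reading of the transgene that could check the labels.

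DNMT1 is the maintenance methyltransferase: after replication it copies methylation from the parental strand of a CpG to the new strand. The level of a CpG in rescued knockout cells therefore holds both what the given DNMT1 protein maintains and what the de novo enzymes Dnmt3a and Dnmt3b add. The counts do not tell these apart. CpG-dense stretches at developmental regulator genes are usually little methylated in ES cells, while introns and the DNA between genes are usually highly methylated. Barx1 encodes a homeobox transcription factor of craniofacial mesenchyme and stomach. Wnt3 encodes a secreted Wnt ligand needed for the primitive streak and gastrulation. Zfp608 encodes a zinc finger protein.

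Libraries held between 59776439 and 138978763 CpG calls, the lowest being WT replicate 3 and the highest WT replicate 2. Of 21867550 CpGs listed, 6143659 had at least 1 read in all 18 libraries, and these gave 580762 tested tiles. A tile's level is its summed methylated reads over all its reads, in percent. Averaged over shared CpGs, WT libraries stood between 54.3% and 68.3% methylated, W796A libraries between 51.1% and 72.5%, W465A between 22.8% and 32.8%, W464A/W465A between 17.6% and 22.4%, W465A/W796A between 42.0% and 48.7%, and W464A/W465A/W796A between 16.8% and 21.1%. Reads per CpG on chromosome 11, which carries Wnt3, were 1.17 to 1.76 times the autosome median, and the ratio was 1.68 or more in WT replicates 1 and 2, W465A/W796A replicates 1 and 3 and W464A/W465A/W796A replicate 3. The part of this uneven chromosome 11 coverage in the Wnt3 values was not tested. These are bulk DNA values, so a site methylated in fewer cells and a site methylated on fewer alleles per cell cannot be told apart.

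In Barx1 the chosen tile was nearly unmethylated in every group that carries W465A and most methylated in W796A. Barx1 (ENSMUSG00000021381.4) lies on the plus strand at chr13:48662998-48666507 of GRCm38, and its chosen tile, chr13:48665001-48666000, covers coding exons 2, 3 and 4, with its centre 2502 bp after the gene's start. Of 58 CpGs listed there 44 had a read in all 18 libraries, with 534 to 1424 reads per library. The 300 bases with the most measured CpGs are shown as the best covered stretch of the tile: 275 of them are coding bases of exon 2, 65.3% are G or C, and capitals mark the 18 of 25 CpGs with a read in every library. Summed over those 18 CpGs the level was 6.90% ± 5.44 in WT, 11.4% ± 2.26 in W796A, 2.37% ± 1.53 in W465A and 1.56% ± 0.63 in W465A/W796A (SD, n = 3). The sequence is that of the GRCm38 reference, plus strand, chr13:48665001-48665300.
Barx1: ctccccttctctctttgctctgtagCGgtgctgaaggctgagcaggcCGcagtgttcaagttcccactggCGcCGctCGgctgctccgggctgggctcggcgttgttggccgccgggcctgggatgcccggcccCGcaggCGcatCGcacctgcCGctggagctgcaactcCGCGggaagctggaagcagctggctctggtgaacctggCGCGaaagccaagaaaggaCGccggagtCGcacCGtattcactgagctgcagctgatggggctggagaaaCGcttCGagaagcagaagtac

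Over the whole Barx1 tile the WT libraries were methylated at 6.74%, 9.08% and 13.2%, and the W796A libraries at 17.0%, 21.2% and 16.8%. Every W796A library was above every WT library. The W465A libraries stood at 6.29%, 4.20% and 5.58%, and the W465A/W796A libraries at 3.03%, 4.63% and 3.82%, so these groups overlapped and both lay below WT. W464A/W465A gave 4.24%, 3.41% and 2.81% and W464A/W465A/W796A 5.14%, 2.80% and 3.12%. In order, W796A (18.3% ± 2.48) was highest, WT (9.68% ± 3.28) was next, and the other 4 groups, from W465A (5.36% ± 1.06) down to W464A/W465A (3.49% ± 0.72), followed with neighbours that overlapped. Adding the W796A difference from WT to the W465A level overshoots the measured W465A/W796A level (3.83% ± 0.80) by 10.2 points, a departure of -10.2 points with a standard error of 2.49. On the logit scale the departure was -1.19. Of the 44 CpGs 38 had a departure below 0, 39 were higher in W796A than in WT and 24 were lower in W465A/W796A than in W465A, in reads summed over each group. The lowest single CpG, at position 48665685, stood at 28.6% in WT, 61.9% in W796A, 18.2% in W465A and 10% in W465A/W796A.

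The Wnt3 chosen tile showed the largest departure of the 3 and lies outside the gene. Wnt3 (ENSMUSG00000000125.5) lies on the plus strand at chr11:103774150-103817957, and the centre of the tile chr11:103772001-103773000 lies at -1649 bp from its start. Of 27 listed CpGs 12 were measured in all libraries, with 192 to 793 reads per library. The stretch printed here holds 7 of those measured CpGs, in capitals, out of 10, and it shows that the upstream sequence is GC-rich (61.0% G or C) without being part of a transcript of Wnt3. Over these 7 CpGs the level was 15.3% ± 10.1 in WT, 27.1% ± 3.75 in W796A, 13.8% ± 3.75 in W465A and 2.65% ± 0.76 in W465A/W796A. The sequence is that of the GRCm38 reference, plus strand, chr11:103772559-103772858.
Wnt3: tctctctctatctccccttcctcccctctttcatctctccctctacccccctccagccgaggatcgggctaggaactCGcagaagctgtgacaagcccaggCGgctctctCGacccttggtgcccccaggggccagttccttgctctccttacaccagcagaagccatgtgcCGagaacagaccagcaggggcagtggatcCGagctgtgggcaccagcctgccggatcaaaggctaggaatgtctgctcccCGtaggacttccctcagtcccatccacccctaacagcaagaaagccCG

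Over the whole Wnt3 tile the WT libraries stood at 5.17%, 11.98% and 21.4%, and the W796A libraries at 21.8%, 34.2% and 24.6%, above every WT library. WT spread widely here, with replicate 1 lowest and replicate 3 highest, as in the other 2 chosen tiles. W465A gave 8.90%, 10.4% and 14.9%, inside the WT range, and W465A/W796A gave 1.21%, 4.26% and 2.95%, below every W465A library. The W464A/W465A libraries were at 4.10%, 10.05% and 7.92%, and those of W464A/W465A/W796A at 6.09%, 3.88% and 1.37%. W796A (26.8% ± 6.48) was highest, WT (12.8% ± 8.15), W465A (11.4% ± 3.12) and W464A/W465A (7.35% ± 3.01) overlapped one after another, and W464A/W465A/W796A (3.78% ± 2.36) overlapped W465A/W796A (2.81% ± 1.53) at the bottom. The departure was -22.6 points with a standard error of 6.34, and -2.61 on the logit scale. All 12 CpGs had a departure below 0 and were higher in W796A than in WT, and 11 were lower in W465A/W796A than in W465A. Chromosome 11 coverage was 1.39 to 1.76 times the autosome median in W465A/W796A and 1.18 to 1.198 times in W465A, and its part in this difference was not tested.

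Zfp608 (ENSMUSG00000052713.9) lies on the minus strand at chr18:54888048-54992555, and its chosen tile, chr18:54987001-54988000, covers coding exon 2. Its centre is 2665 bp after the start of the gene's first annotated transcript, which begins inside the gene's span. The tile also overlaps Gm26742, an annotated long non-coding RNA gene. Reads at 27 of 35 CpGs were used, 232 to 807 per library. WT libraries were at 5.78%, 9.54% and 15.1% and W796A libraries at 15.9%, 19.3% and 19.6%, without overlap. W465A gave 1.69%, 7.22% and 5.64%, and W465A/W796A gave 1.195%, 1.64% and 0.995%, below every W465A library. W464A/W465A libraries stood at 2.27%, 0.743% and 1.48%, and W464A/W465A/W796A libraries at 1.42%, 0.988% and 0.259%. The order ran from W796A (18.3% ± 2.01) over WT (10.1% ± 4.68) and W465A (4.85% ± 2.85) to W464A/W465A (1.498% ± 0.77), then W465A/W796A (1.28% ± 0.33) and last W464A/W465A/W796A (0.889% ± 0.587), and WT overlapped W465A as each of the last 3 overlapped its neighbours. The departure was -11.7 points with a standard error of 3.38, and -2.08 on the logit scale. It was below 0 at 22 of the 27 CpGs, 20 CpGs were higher in W796A than in WT and 21 lower in W465A/W796A than in W465A. At position 54987511, the lowest, the levels were 20.5% in WT, 58.1% in W796A, 13.2% in W465A and 1.96% in W465A/W796A.

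**Figure D1:**
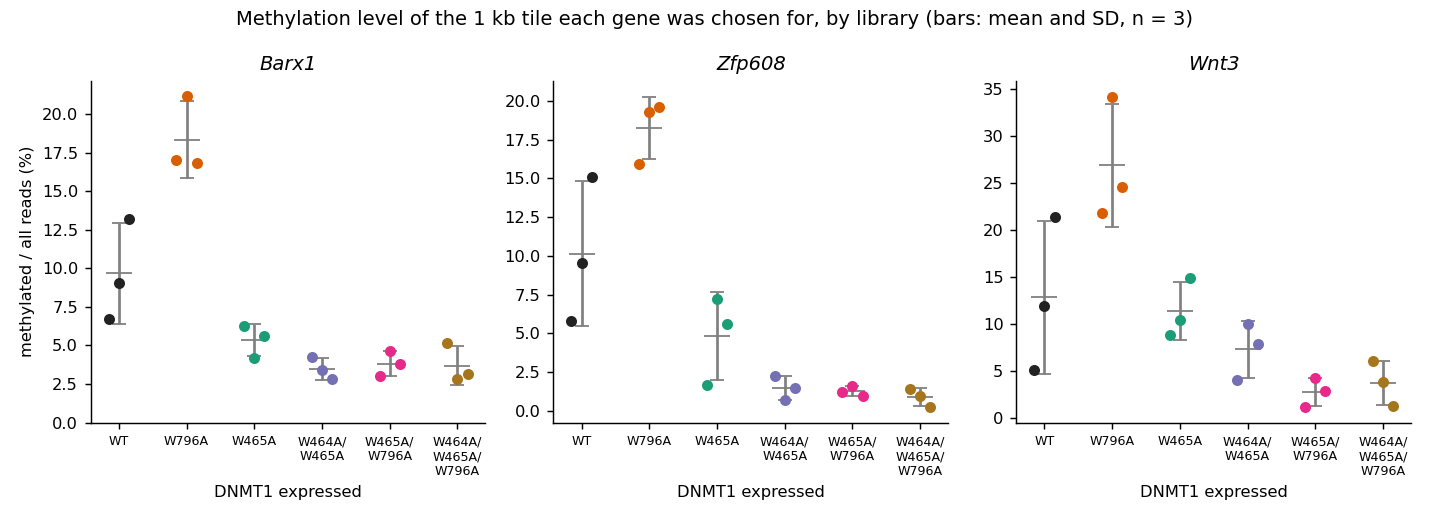
Methylation level (percent of reads, y axis) of the chosen tile in each of the 18 libraries (points), by DNMT1 form (x axis), with the group mean and SD (n = 3) as bars. W796A points lie above all WT points in each gene, and W465A/W796A means lie between 1.28% and 3.83%.

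In all 3 chosen tiles every W796A library exceeded every WT library, which 1.87% of all tiles did, and in 2 of them every W465A/W796A library lay below every W465A library, which 0.167% of all tiles did. Both separations are part of what the tiles were selected on. The tile of each gene was picked by an adjusted p under 0.05, from a test of the departure on the logit scale, and at least 10 points below additivity. This fit used CpGs covered by 5 or more reads per library, where 0.00321% of 155660 tiles passed. On that fit the adjusted p was 0.0367 in Barx1, 0.0410 in Wnt3 and 0.049997 in Zfp608, and the departures, here from reads summed over each group, were -11.3, -22.2 and -11.3 points. Just outside lay, on the same scale, Barx1 chr13:48659001-48660000 (-19.8 points, 0.0585), Wnt3 chr11:103771001-103772000 (-14.4 points, 0.100), Wnt3 chr11:103773001-103774000 (-9.61 points, 0.104) and Zfp608 chr18:54986001-54987000 (-33.9 points, 0.147). The Zfp608 and Wnt3 tiles adjoin the chosen ones, and the Barx1 tile does not. This Barx1 tile and the Zfp608 neighbour had larger departures than the chosen tiles, and both Wnt3 neighbours smaller ones. In CpGs with at least 1 read, used for all other values, the 3 tiles were called too, where 0.00172% of all tiles were called below and 1.53% above additivity. Among the 104 other tiles of the 3 genes 0 were called by the quasi-binomial model, 18 having an unadjusted p under 0.05. Nothing is read from these counts, since the contrast is the one the genes were chosen by, and neither limma nor edgeR was run on it.

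**Figure D2:**
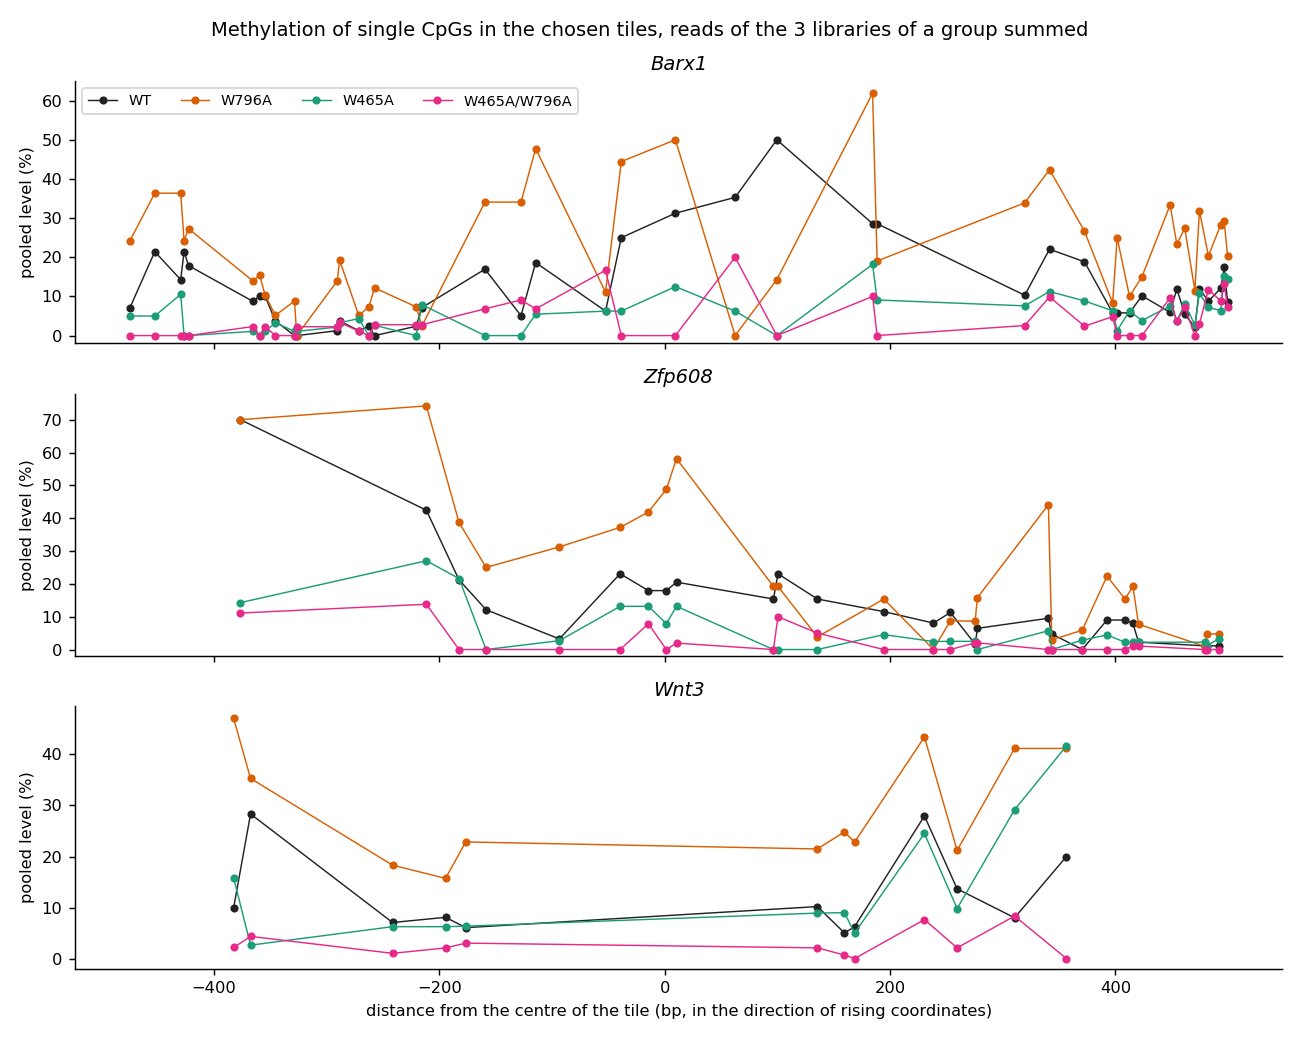
Level of each measured CpG (percent of the reads of the 3 libraries of a group summed, y axis) against distance from the centre of the chosen tile in bp (x axis), for WT, W796A, W465A and W465A/W796A. W796A is above WT at 39 of 44 Barx1, 20 of 27 Zfp608 and 12 of 12 Wnt3 CpGs.

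The W464A/W465A and W464A/W465A/W796A libraries do not enter the departure and touched the choice only through the shared read filter and the shared estimate of spread, so W796A on the W464A/W465A background could be tested in the chosen tiles too. The quasi-binomial logistic model (likelihood-ratio F test over all 18 libraries, Benjamini-Hochberg adjustment over all tiles) gave differences of 0.32 points in Barx1 (p = 0.764), -0.53 points in Zfp608 (p = 0.491) and -3.59 points in Wnt3 (p = 0.166), each with an adjusted p of 1. Groups overlapped in each tile. In summed reads W464A/W465A stood at 3.54% in Barx1, 1.49% in Zfp608 and 7.22% in Wnt3. A fall of 10 points, which a lower call needs, was therefore not possible in the chosen tiles. Over all 107 tiles of the 3 genes 0 were called and 0 had an unadjusted p under 0.05, beside 0% of all tiles called, and limma and edgeR called 0 as well. The differences ran from -15.1 to 15.9 points, with a median of 0.01 against -0.64 over all tiles. W464A/W465A against W465A was tested in the 104 tiles outside the chosen ones: 0 were called by this model, by limma or by edgeR, 10 had an unadjusted p under 0.05, beside 48462 of all 580762 tiles, and 0% of all tiles were called. Its median was -9.96 points, with 91 of 104 tiles lower in W464A/W465A, against a median of -7.47 and 83.7% of tiles lower over all tiles.

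Away from the chosen tiles most tiles of Zfp608 and Wnt3 were lower than WT in W465A, W464A/W465A and W464A/W465A/W796A, as were most tiles of the genome. In W465A 85 of 104 tiles were lower than in WT (adjusted p under 0.05 and at least 10 points), beside 92.3% of all tiles, with a median difference of -36.7 points against -43.0 over all tiles. In W464A/W465A 90 were lower beside 94.5%, and in W464A/W465A/W796A 90 beside 94.8%, with medians of -47.5 and -47.4 points. In W465A/W796A 46 were lower beside 33.1%, with a median of -19.7 points against -20.8. Barx1 took a small share of these calls, with 3, 3, 4 and 2 of its 9 tiles, and 8 of these 9 tiles had a WT level under 30%. In some, such as the start tile at 1.08% in WT, a fall of 10 points was not possible. All 9 were lower than WT in W465A (median -4.85 points), W464A/W465A/W796A and W465A/W796A, and 8 in W464A/W465A. The small share of calls is therefore not read as a smaller effect in Barx1. No tile was called higher than WT in these 4 comparisons. When each library's genome-wide level was used as an offset, the lower calls became 0, 0, 2 and 0 tiles and 1, 1, 2 and 0 were called higher, in the order W465A, W464A/W465A, W464A/W465A/W796A and W465A/W796A. Over all tiles the shares under the offset were 4.12%, 5.995%, 5.36% and 0.0711% lower and 0.385%, 0.571%, 0.621% and 0.00775% higher. The 46 became 0 on leaving out WT replicate 2 and 21 on leaving out WT replicate 3. Leaving out W465A/W796A replicate 3 gave 13 and its replicate 2 gave 23, while limma gave 24 and edgeR 28.

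With W796A alone, 1 of the 9 Barx1 tiles outside the chosen one was called higher than in WT. All 9 had a higher level in W796A than in WT, with a median of 11.3 points against -0.41 over all tiles. In 6 of the 9 every W796A library was above every WT library, against 1 of 55 tiles in Zfp608, 0 of 40 in Wnt3 and 1.87% of all tiles. Of the 9 Barx1 tiles 8 had a WT level under 30%, and the share over all tiles is not matched for WT level. Barx1 was also chosen on a contrast that holds W796A and WT, so this separation is only a description. The tile chr13:48659001-48660000, centred at -3497 bp from the start, passed the test: its WT libraries stood at 7.14%, 12.4% and 20.3% and its W796A libraries at 30.1%, 36.8% and 29.1%, a difference of 18.9 points in summed reads (adjusted p = 0.0410). It lay just outside the threshold, so its W796A level is not independent of the choice of Barx1. It was the only member tile called higher in W796A, beside 0.00517% of all tiles, and 0 of 104 were called lower, beside 0.000517%, with 10 tiles at an unadjusted p under 0.05 and 0 called in either direction by limma or edgeR. This call was lost when any of 16 of the 18 libraries was left out, the adjusted p then running up to 0.470, and it held without WT replicate 3 or W796A replicate 1. In the same tile W465A was at 5.46% ± 0.68, W465A/W796A at 4.82% ± 1.14 and W464A/W465A/W796A at 3.21% ± 2.16. Next to it, chr13:48658001-48659000 stood at 25.03% ± 8.14 in WT and 44.3% ± 8.32 in W796A, without overlap, but had an adjusted p of 0.357.

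W465A/W796A was more methylated than W465A in some tiles of Zfp608 and Wnt3. Outside the chosen tiles 9 of 104 tiles were higher in W465A/W796A than in W465A, 5 in Wnt3 and 4 in Zfp608, beside 24.6% of all tiles, and 0 were lower, beside 0.000861%, with 28 at an unadjusted p under 0.05. Limma called 2 and edgeR 3 higher and neither called any lower. In Wnt3 the called differences ran up to 48.4 points at chr11:103793001-103794000 (adjusted p = 0.0346), and in Zfp608 up to 40.4 points at chr18:54936001-54937000 (adjusted p = 0.0313), both in introns. Median differences were 14.9 points in Wnt3, 12.8 in Zfp608 and -0.69 in Barx1, against 20.95 over all tiles, and no Barx1 tile was called. With each library's genome-wide level as an offset 0 tiles were higher and 2 lower, beside 0.257% and 0.0284% of all tiles. The 9 calls became 16 without W465A replicate 1, 4 without W465A/W796A replicate 2, and 0 without W465A replicate 2, W465A replicate 3 or W465A/W796A replicate 1.

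A few tiles next to the chosen ones went the other way. In 4 of the 40 other Wnt3 tiles and 1 of the 55 other Zfp608 tiles every W465A/W796A library was below every W465A library, against 0.167% of all tiles. The reverse held in 17 Wnt3 and 15 Zfp608 tiles, 32 of 104 in all, against 52.1% of all tiles. These tiles are named after their values were seen: 3 of the Wnt3 tiles are those flanking the chosen tile and the tile with the start of the gene, and the Zfp608 tile adjoins its chosen tile. At chr11:103771001-103772000 W465A gave 6.25%, 5.22% and 7.95% and W465A/W796A 0.714%, 3.79% and 0.676%. At chr11:103773001-103774000 the means were 3.99% ± 1.12 and 1.34% ± 0.66. The differences of -5.12 and -2.73 points had adjusted p of 0.0817 and 0.104 in the quasi-binomial fit and were under the 10-point minimum. At chr18:54986001-54987000, an intron tile more methylated in WT (54.2% ± 15.8), W465A stood at 19.4% ± 6.42 and W465A/W796A at 11.3% ± 1.98 (adjusted p = 0.435).

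**Figure D3:**
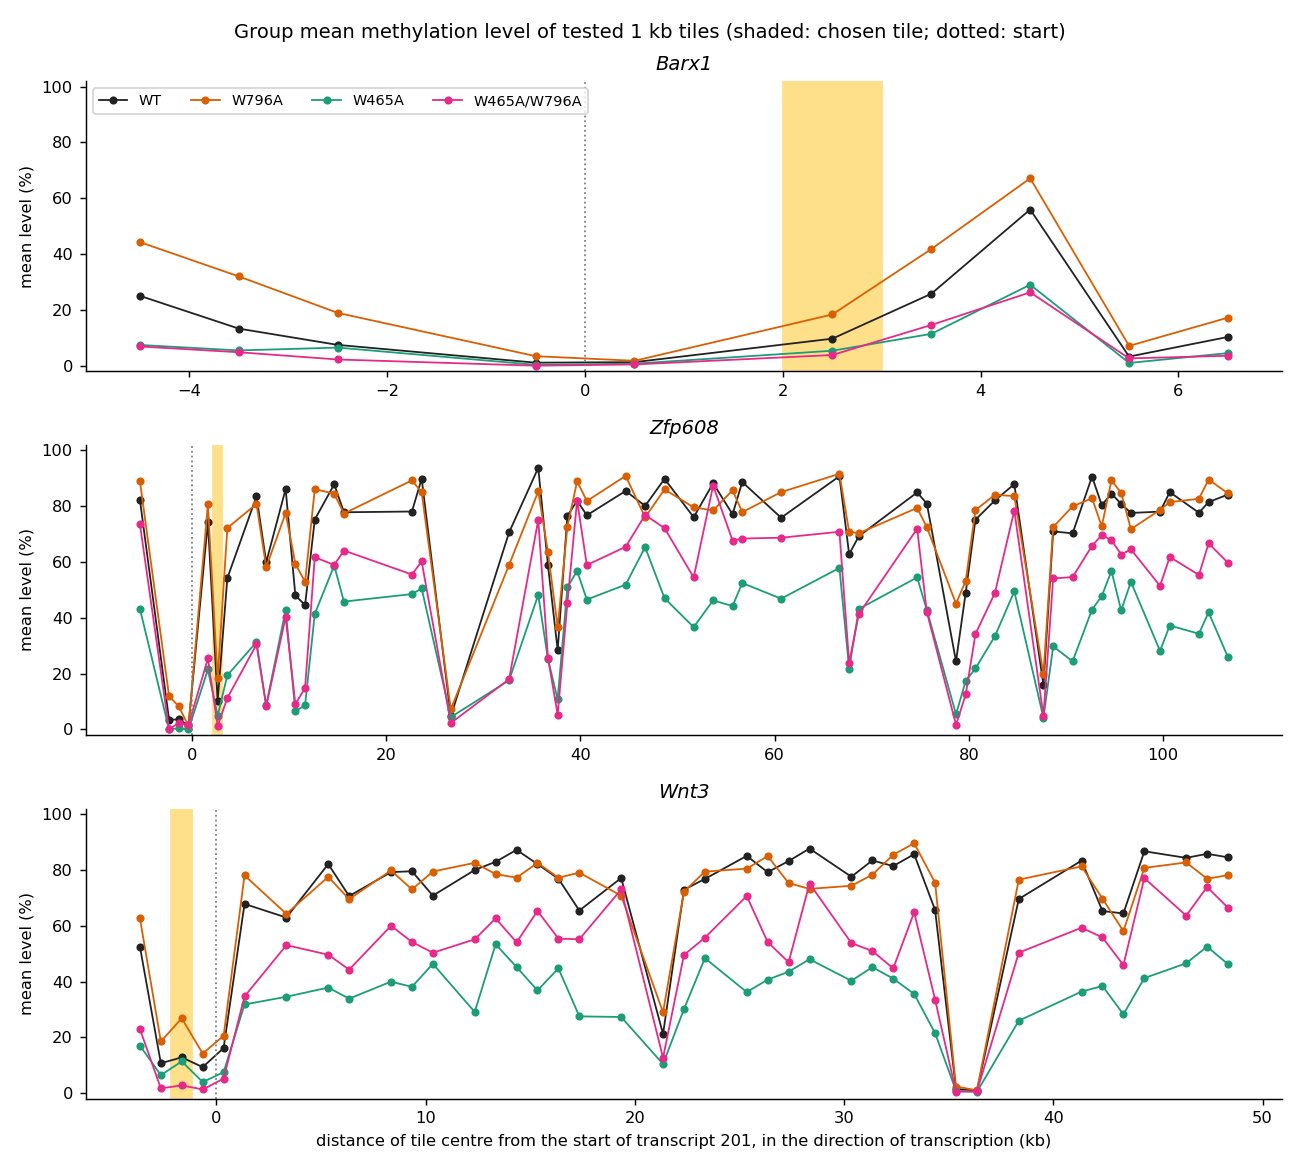
Mean level (percent, y axis) of each tested tile against its distance in kb from the start of the gene's first transcript (x axis), for WT, W796A, W465A and W465A/W796A (n = 3 each). The chosen tile is shaded, and the dotted line is the start. W465A/W796A lies above W465A over the bodies of Zfp608 and Wnt3 in most tiles, below it in the chosen tiles, and close to it along Barx1.

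The starts of the first annotated transcripts of Barx1 and Zfp608 were almost free of methylation in WT. The tile with the Barx1 start was at 1.08% ± 0.18 in WT and 3.41% ± 0.98 in W796A, with libraries of 4.17%, 2.30% and 3.77% in W796A. The tile with that start in Zfp608, chr18:54990001-54991000, was at 1.45% ± 1.49 in WT and 1.18% ± 2.04 in W796A. The Wnt3 start tile, chr11:103774001-103775000, was partly methylated: WT libraries stood at 12.5%, 17.0% and 19.01% and W796A libraries at 12.2%, 28.8% and 20.6%, which overlapped. There the level fell by 12.6 points in W464A/W465A (adjusted p = 4.2e-05), by 11.2 points in W464A/W465A/W796A (adjusted p = 4.92e-05) and by 11.1 points in W465A/W796A (adjusted p = 0.00734). W465A was 9.04 points below WT (adjusted p = 0.000852), just under the 10-point minimum.

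The most methylated tiles of Zfp608 and Wnt3 lay above additivity. In Zfp608 an intron tile, chr18:54954001-54955000, stood at 93.7% ± 5.46 in WT, 85.3% ± 15.8 in W796A, 48.2% ± 11.3 in W465A and 75.1% ± 12.3 in W465A/W796A, a departure of 35.3 points above additivity. In Zfp608 exon 5, at chr18:54897001-54898000, the levels were 90.6% ± 1.09, 82.8% ± 14.9, 43.0% ± 10.2 and 65.8% ± 7.12 in the same order, 30.6 points above. In Wnt3 the intron tiles chr11:103807001-103808000 and chr11:103788001-103789000 were 25.3 and 18.8 points above additivity, from WT levels of 85.6% ± 15.5 and 87.2% ± 10.6. Barx1 had no tile of that kind: its highest, chr13:48667001-48668000 after the gene, stood at 56.0% ± 27.0 in WT, 67.1% ± 18.4 in W796A, 29.0% ± 2.73 in W465A and 26.3% ± 17.8 in W465A/W796A, 13.9 points below additivity. Its WT libraries, at 26.2%, 62.9% and 78.8%, spanned more than that departure. The standard errors of the Zfp608 and Wnt3 departures were 13.6, 11.2, 14.2 and 15.4 points in the order named. Those tiles were picked for a high WT level, which enters the departure with a plus sign. None was called for the departure (adjusted p from 0.156 to 0.407, quasi-binomial model, logit scale).

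Departures below additivity went with low WT levels. Among the 104 tiles outside the chosen ones, those with a WT level of 5% to 30% were below additivity in 12 of 12 cases, with a median of -12.7 points, against 41.1% of 21825 tiles genome-wide, with a median of 1.91. Between 30% and 60% WT it was 7 of 8, median -6.52, against 16.6% and 13.95. Above 60% it was 8 of 75, median 16.4, against 4.24% and 22.1, and under 5% it was 7 of 9, median -2.20, against 59.3% and -0.14. By gene, 8 of 8 Barx1 tiles, 6 of 7 Zfp608 tiles and 5 of 6 Wnt3 tiles with a WT level under 30% were below additivity, and 1 of 1, 10 of 48 and 4 of 34 of the others. On the logit scale the 12 tiles of 5% to 30% were again all below 0, with a median of -1.12 against 0.73 over all tiles of that level. These are descriptions: tiles of a gene share libraries, and the WT level enters both the class and the departure. The genes were also chosen on this departure, and the tiles named above as just outside the threshold are counted here. The difference from the shares over all tiles is therefore not read as a trait of these genes.

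**Figure D4:**
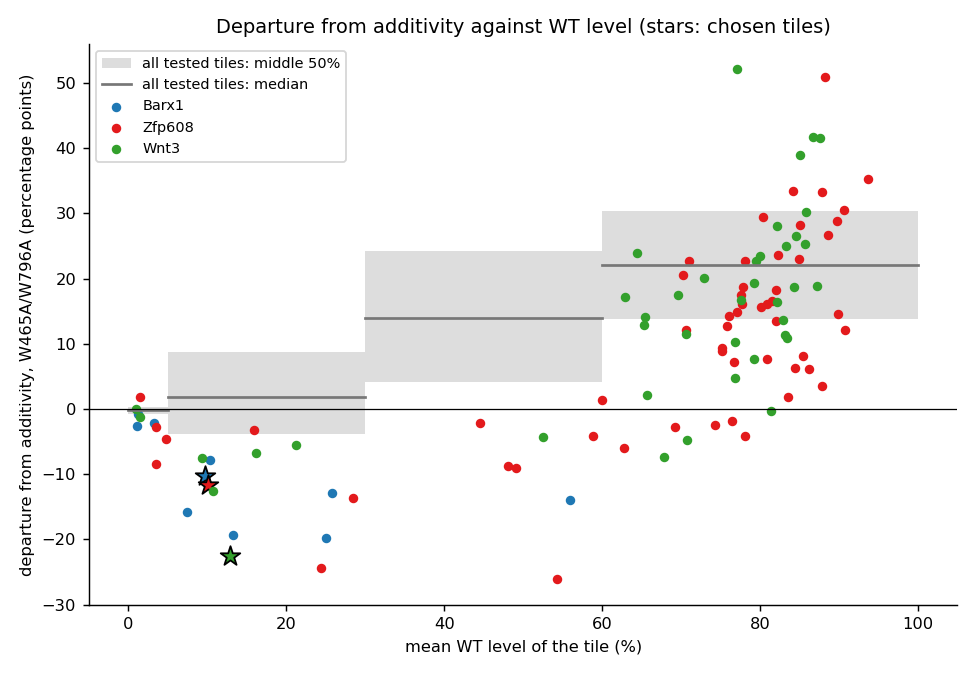
Departure from additivity of W465A/W796A (percentage points, y axis) against the mean WT level of the tile (percent, x axis) for each tested tile of the 3 genes (points; stars are the chosen tiles), with the median and middle 50% of all 580762 tiles in grey for each WT class. Points with WT levels between 5% and 30% lie below 0, and most of those above 60% lie above it.

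Taken over whole genes with 5 kb either side and the chosen tile left out, Barx1 alone was below additivity. Its libraries were at 8.03%, 12.3% and 15.6% in WT, 17.0%, 24.3% and 18.4% in W796A, 5.43%, 4.66% and 4.52% in W465A and 3.63%, 6.57% and 4.39% in W465A/W796A, a departure of -7.94 points. In Zfp608 the group means were 67.9% ± 8.04 in WT, 71.7% ± 10.3 in W796A, 32.7% ± 3.19 in W465A and 46.4% ± 2.27 in W465A/W796A, which is 9.97 points above additivity. In Wnt3 they were 36.8% ± 4.67, 36.3% ± 8.27, 17.2% ± 1.00 and 22.7% ± 1.92, or 5.93 points above. In summed reads the departures were -8.26 points in Barx1, 9.94 in Zfp608 and 6.61 in Wnt3, against a median of 15.98 over all gene regions. None of these was called by the quasi-binomial model on the logit scale (adjusted p = 0.0926, 0.207 and 0.135). Nothing is read from these p-values or from the sign in Barx1. The genes were chosen on this contrast, and their regions keep the tiles that lay just outside the threshold. Of 21033 gene regions 8422 were called above additivity and 0 below. In Zfp608 and Wnt3 the name of loci below additivity thus describes the chosen tile and some tiles near it, not the gene region. Their gene regions without the chosen tile lay above 0 and below that median.

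Among gene regions the same quasi-binomial test was run over 21033 genes. Zfp608 and Wnt3 were lower than WT in W465A, by 35.9 and 20.2 points (adjusted p = 1.89e-05 and 2.83e-05), beside 92.1% of gene regions, in W464A/W465A, by 46.3 and 24.3 points, beside 93.7%, and in W464A/W465A/W796A, by 45.5 and 25.6 points, beside 94%. They were also lower in W465A/W796A, by 21.8 and 14.4 points (adjusted p = 0.0167 each), beside 59.2%, and these last calls were lost without WT replicate 2 (adjusted p = 0.169), W465A/W796A replicate 2 (0.0501) or W465A/W796A replicate 3 (0.0611). With at least 10 reads per CpG all 4 Wnt3 calls were lost, the differences from WT lying between -5.39 and -3.89 points. Barx1 differed from WT by -7.15, -9.38, -8.93 and -7.24 points in the 4 groups, with adjusted p between 2.78e-05 and 0.0167, and missed the 10-point minimum each time. The mean WT level of its region was 11.98% ± 3.81, so a fall of 10 points would take most of it. Without WT replicate 1 Barx1 passed in W464A/W465A at -10.6 points and in W464A/W465A/W796A at -10.1. W465A/W796A was higher than W465A in Zfp608 by 14.1 points (adjusted p = 0.0153), a call beside 62.2% of gene regions that was lost without W465A replicate 3 (0.0728) or W465A/W796A replicate 1 (0.0707). Wnt3 gave 5.75 points (adjusted p = 0.0749) and Barx1 -0.09 (adjusted p = 0.945). W796A against WT was called in 0 of the 3 genes and 0% of gene regions by this model, the only one run on regions, with an unadjusted p under 0.05 in Barx1 alone, at 8.17 points (adjusted p = 1.00).

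**Figure D5:**
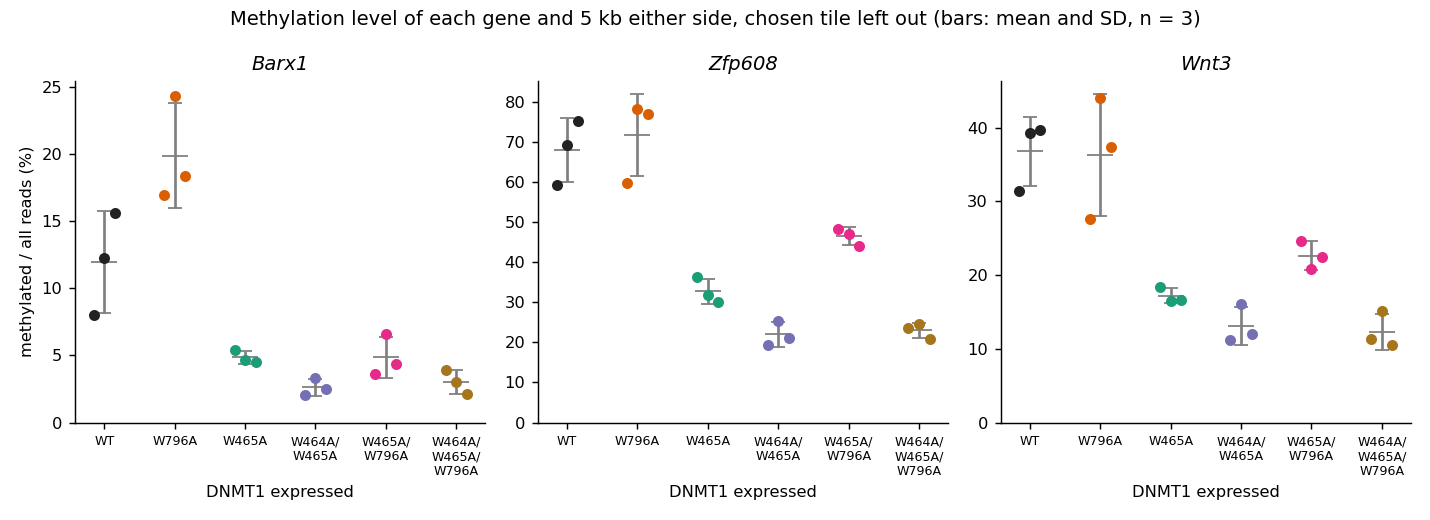
Methylation level (percent of reads, y axis) of each gene with 5 kb either side and without its chosen tile, for each of the 18 libraries (points) by DNMT1 form (x axis), with group mean and SD (n = 3). Barx1 stays at or below 24.3% in every library, while W465A/W796A lies above W465A in Zfp608 and Wnt3.

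The chosen tiles are dense in CpGs. The rule set no limit on density, but it was applied to the 155660 tiles with at least 3 CpGs covered by 5 or more reads per library. The comparison here is with all 580762 tested tiles, so the density is not independent of the choice. A comparison within the 155660 tiles was not made. The chosen tiles hold 58, 35 and 27 CpGs in Barx1, Zfp608 and Wnt3. The median was 12 over all tested tiles and 14 over the other tiles of these genes, and 98.2%, 95.5% and 92.5% of tested tiles hold fewer. Other tiles of the same genes with a WT level under 30% hold medians of 40, 26 and 54, so the Wnt3 tile has fewer CpGs than that median. G and C make up 60.2%, 53.4% and 58.2% of their bases, against a median of 45.8%. Repeat-masked bases make up 4%, 5.2% and 14.5%, against 18%.

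The 3 chosen tiles varied together over the 18 libraries, with Pearson's r of 0.956 between Barx1 and Zfp608, 0.931 between Barx1 and Wnt3 and 0.926 between Zfp608 and Wnt3. These libraries share groups and depth, and the tiles were chosen on group levels, so no p is given. Among 342570 tiles covered by 20 or more reads per library, the tile most like that of Barx1 overlaps Foxl1 and Gm20388 (r = 0.987), followed by tiles in Fgf9 (0.986) and Acss3 (0.985). Tiles in Nkx2-2 (0.977) and Sim2 (0.976) were among those most like that of Zfp608, and the tiles most like that of Wnt3 lie in Ror1 (0.961), Ache (0.958) and Skor1 (0.954). Foxl1, Nkx2-2, Sim2 and Skor1 encode transcription factors or cofactors, Fgf9 a growth factor, Ror1 a receptor for Wnt ligands and Ache acetylcholinesterase. The tiles named had negative departures, from -24.8 points in the Fgf9 tile to -2.47 in the Ror1 tile, and the departure is part of the profile that was matched.

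Most tiles of related genes lay above additivity. The list held 18 other Wnt ligand genes, the Bar-class homeobox genes Barx2, Barhl1 and Barhl2, and Zfp609, the paralogue of Zfp608, with 506 tested tiles in all. Of these 412 were lower than WT in W465A, beside 92.3% of all tiles, 432 in W464A/W465A beside 94.5%, 429 in W464A/W465A/W796A beside 94.8% and 170 in W465A/W796A beside 33.1%. W465A/W796A was higher than W465A in 92, beside 24.6%. For the departure 1 tile was called above additivity, beside 1.53% of all tiles, and 0 below, beside 0.00172%. From reads summed over each group, the median departure was 15.1 points against 21.5 over all tiles, and 23.1% of tiles were below 0 against 7.56%. The Bar-class, Wnt ligand and Zfp609 values that follow are on the same scale. Among the 68 tiles of the Bar-class genes 38.2% were below 0, with a median of 3.91 points, and among the 390 tiles of the Wnt ligands 22.3%, with a median of 15.2. Zfp609, with 48 tiles, had 8.33% below 0 and a median of 26.9. The lowest tile was in Wnt5a, at chr14:28508001-28509000. Its group means were 22.1% in WT, 53.9% in W796A, 18.3% in W465A and 3.13% in W465A/W796A. By group means it lay -47.0 points from additivity, with an adjusted p of 0.0554 in the quasi-binomial test on the logit scale. Next by size came tiles in Wnt2 (-20.5 points), Barhl2 (-20.1), Wnt8a (-18.6) and Wnt3a (-17.7), none of which passed the test.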

How the data were processed

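The authors deposited 1 table of whole-number counts, methylated reads and all reads for each CpG and library, with no normalization. Cutadapt 1.2.1, Bismark 0.18.1, Bowtie 1.2 and the builds mm10 and GRCm38 are named in the submitters' processing notes, without a role or order, and whether PCR duplicates were removed is not given in the sources used here. All 21867550 positions are CpGs of GRCm38, and genes come from GENCODE M21. CpGs with at least 1 read in all 18 libraries were summed in 1 kb tiles with at least 3 such CpGs and 10 reads per library, which gave 580762 tiles, and in gene regions with 5 kb either side.

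Methylated and unmethylated counts entered a quasi-binomial logistic regression on group with 12 residual degrees of freedom, its overdispersion squeezed across tiles (prior 3.29 with 10.7 degrees of freedom) or gene regions (prior 17.1 with 3.00). An F test with Benjamini-Hochberg adjustment over the whole table followed, and a call needed an adjusted p under 0.05 and at least 10 points between pooled group levels. The departure from additivity is W465A/W796A minus W465A minus W796A plus WT, from group means, with a standard error from the replicates. Summed reads were used instead for single CpGs and where the text says so. The p of a departure tests it on the logit scale, from summed reads, and not in points. As alternatives the tiles were tested in R 4.3.3 by the quasi-likelihood method of edgeR 4.0.16 and by limma 3.58.1 on log2 ratios of methylated to unmethylated reads after adding 0.5 to both. All else ran in Python 3.11.15 (numpy 2.4.6, scipy 1.17.1). The model was tested on simulated data. Other settings tried were coverage minimums, 500 bp tiles, an offset for the global level, the replicate number as a block, and each library left out in turn.

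The members and lists were chosen with earlier results of these data known. Tiles named are the chosen tile, the tile with the start, the 2 most methylated in WT, tiles called against the trend, and others where the text says so. The other genes named are those of the 3 tiles with the highest r with each chosen tile, of which 1 is not reported here, and of the related genes the tiles of lowest departure. Reads without molecular identifiers are not independent molecules, so precision rests on the spread between libraries.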

Additional observations from a re-analysis of the deposited data

How the results depend on the processing

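The departure at the chosen tiles was below 0 under each coverage minimum, with each CpG counted once and on the logit and log2 scales. Leaving out each library gave -11.97 to -8.73 points in Barx1, -14.2 to -9.52 in Zfp608 and -26.9 to -18.8 in Wnt3. The tiles were picked for a negative departure in the same reads, so its sign here is no support for it. Its size, in group means, fell under 10 points in Zfp608 with at least 10 reads per CpG (-8.24). It also did so in Barx1 and Zfp608 at the upper ends of the ranges given. Counts of member tiles are given in the order W465A, W465A/W796A, W464A/W465A and finally W464A/W465A/W796A lower than WT, W796A higher than WT, and W465A/W796A higher than W465A, where the counts reported were 85, 46, 90, 90, 1 and 9 of 104. With at least 5 reads per CpG, which left 34 tiles, they were 25, 11, 26, 26, 0 and 1, and with at least 10 reads, which left 12 tiles, 3, 1, 5, 5, 0 and 0. With the offset for each library's global level they were 0, 0, 0, 2, 3 and 0, the 3 beside 0.126% of all tiles. The cause of the lower counts under the offset was not tested beyond its construction, which takes out the genome-wide difference. For W796A against WT the count was 0 with 500 bp tiles, without squeezing, with limma and with edgeR. For W465A/W796A against WT limma gave 24 and edgeR 28, and for W465A/W796A against W465A the count was 2 without squeezing, 2 with limma and 3 with edgeR. The cause of these differences was not tested. Leaving out each library in turn gave 73 to 86, 0 to 65, 89 to 92, 89 to 91, 0 to 2 and 0 to 16, and 0 in each case for W464A/W465A/W796A against W464A/W465A and for W464A/W465A against W465A.

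Replicate numbers are shared between groups, but no source says that they pair the libraries. Deviations of same-numbered libraries correlated at 0.0774 to 0.121 between WT and W796A, above the 0.0301 reached by other numbers, and in 0 of 15 pairs of groups was every correlation over 0.1. With the replicate block the count for W465A/W796A against WT was 30, and the other member counts stayed within 1.5 times those reported. Of the gene region results under the settings run on regions, 533 kept their side of the threshold or moved by less than the spread. Of the others 13 lost a call, 2 gained 1 and 4 moved. These counts include fits that left out a library of neither group compared, where the difference cannot move. So the 533 is no measure of robustness. The offset for the global level was not run on gene regions. With at least 10 reads per CpG Wnt3 differed from WT by -4.15 points for W465A, -3.89 for W465A/W796A, -5.23 for W464A/W465A and -5.39 for W464A/W465A/W796A, under the 10-point minimum. With each CpG counted once these Wnt3 differences were -26.5 in W465A, -32.8 in W464A/W465A and -33.4 in W464A/W465A/W796A, and W465A/W796A was 10.8 points above W465A. A tile can hold as few as 10 reads in a library, and 3 libraries per group limit what a departure can show.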
